A study of Mus musculus with 24 samples.

Results

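Genes of fatty acid oxidation, ketone body use and lipid droplets were followed in astrocytes and in the remaining cells of the mouse cerebral cortex across 3 vigilance states. The set was a list of 36 gene symbols, and all 36 were found among the 18193 genes measured. Each gene was read from the probe set, among those annotated to that gene alone, with the highest mean over the 24 arrays. Levels are log2 values after RMA normalization, and no level was compared between genes.

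All mice were adult and heterozygous for aldh1l1 - eGFP-L10a, a transgene in which the Aldh1l1 promoter, active in astrocytes, drives a ribosomal protein fused to eGFP. Ribosomes pulled down through the tag gave the bound fraction, and the supernatant with the RNA of the remaining cells gave the unbound fraction. Each of the 18 bound arrays came from 1 animal, with 6 animals in sleep, 6 in waking and 6 after sleep deprivation. Each of the 6 unbound arrays was a pool of 3 animals of 1 state, either animals 1 to 3 or animals 4 to 6. Sleeping mice were killed in the light phase between 3 and 5 pm, after a sleep period of over 45 min and with at least 75% of the last 6 to 7 h asleep. Waking mice were killed in the dark phase between 3 and 5 am, after over 1 h awake and with at least 70% of the last 6 to 7 h awake, so that waking and time of day cannot be told apart. Sleep-deprived mice had been awake of their own accord for most of the dark phase and were then kept awake for 4 h of the light phase with new objects. Sex is not given in the labels. The fractions were purified with different RNA kits and differed in pooling, so that fraction, kit and pooling cannot be told apart. In such bulk samples fewer cells of a type and less RNA per cell cannot be told apart either.

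Mitochondria burn long-chain fatty acids after these have been activated to acyl-CoA and carried across the inner membrane as carnitine esters. Rounds of dehydrogenation, hydration, a further dehydrogenation and thiolysis then release acetyl-CoA, and the electrons pass through a flavoprotein to the respiratory chain. The fatty acids can come from lipid droplets, which are coated by perilipins and emptied by lipases acting in sequence. Ketone bodies made in the liver can be taken up and oxidized by brain cells, and fatty acid oxidation in brain is generally attributed mostly to astrocytes.

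The promoters of 4 genes on which the results turn are shown first. Cpt1a and Cpt1c are related genes on opposite sides of the comparison of fractions, Acsbg1 had the next largest difference after Cpt1a, and Pnpla2 is a lipase that passed a test after sleep deprivation. Each sequence is the 250 bases before the start site that the RefSeq promoter table uses for the gene in build GRCm38.p6, written 5′ to 3′ on the strand of the gene. The windows were chr19:3323051-3323300 on the plus strand for Cpt1a, chr7:44974852-44975101 on the minus strand for Cpt1c, chr9:54661886-54662135 on the minus strand for Acsbg1 and chr7:141454938-141455187 on the plus strand for Pnpla2. The windows of Acsbg1 and Pnpla2 adjoin the outer end of the annotated gene. That of Cpt1a lies inside the gene, which is annotated from position 3322326, and that of Cpt1c overlaps the 5′ end of its gene, annotated up to 44974880. Capitals mark GC boxes (GGGCGG) and copies of AGGTCA, only a half-site of the elements bound by nuclear receptors such as the PPARs, on either strand.
Cpt1a: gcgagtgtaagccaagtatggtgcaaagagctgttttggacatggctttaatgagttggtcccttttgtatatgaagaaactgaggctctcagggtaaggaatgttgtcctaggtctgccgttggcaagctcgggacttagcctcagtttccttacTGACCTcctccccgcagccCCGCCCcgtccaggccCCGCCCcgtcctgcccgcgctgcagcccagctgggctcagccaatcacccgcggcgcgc
Cpt1c: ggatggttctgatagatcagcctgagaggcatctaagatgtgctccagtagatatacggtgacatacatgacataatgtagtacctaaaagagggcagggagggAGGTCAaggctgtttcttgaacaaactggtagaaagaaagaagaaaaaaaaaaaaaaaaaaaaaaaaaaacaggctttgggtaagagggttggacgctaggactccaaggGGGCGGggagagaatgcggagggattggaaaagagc
Acsbg1: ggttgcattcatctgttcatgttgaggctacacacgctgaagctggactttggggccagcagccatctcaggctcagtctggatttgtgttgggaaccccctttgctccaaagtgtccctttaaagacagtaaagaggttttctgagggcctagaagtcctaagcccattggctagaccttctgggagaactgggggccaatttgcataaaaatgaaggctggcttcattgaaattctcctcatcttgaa
Pnpla2: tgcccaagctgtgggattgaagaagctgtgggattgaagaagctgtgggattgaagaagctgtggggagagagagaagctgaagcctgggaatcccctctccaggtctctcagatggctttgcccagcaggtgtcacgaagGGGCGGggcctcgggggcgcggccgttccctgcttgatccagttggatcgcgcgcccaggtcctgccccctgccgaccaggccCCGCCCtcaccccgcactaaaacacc

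Cpt1a and Pnpla2 each held 2 GC boxes, Cpt1c held 1 and Acsbg1 held 0. An AGGTCA was found once in Cpt1a and once in Cpt1c, the pair on opposite sides of the comparison. No GC box overlapped an AGGTCA in these windows. Of the 36 genes, 31 had a promoter in the RefSeq table, in 36 windows. GGGCGG was present in 63.9% of those windows, against 48.3% of the 18109 windows of genes on the array and 32.7% of all 32851 windows. AGGTCA was present in 22.2%, against 12.5% and 14.0%, and its carriers were Acadm, Plin2, Cpt1c, Echs1, Fabp7, Acsl6, Acadvl and Cpt1a. The direct repeat AGGTCANAGGTCA, which joins half-sites with 1 base between, was in 0 of the 36 windows and in 0.0387% of the windows of genes on the array. TATAAA was also in 0 windows, against 8.81%, while CCAAT was in 41.7%, against 34.7%, and CACGTG in 5.56%, against 7.38%. Both strands were searched, and a match describes letters only.

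The fractions matched their labels by marker genes. All 16 astrocyte markers were higher in the bound fraction, among them Aldh1l1 by 3.72 ± 0.11 log2 units. Of 14 neuron markers 13 were lower, with a median log2 difference of -2.18. Neuronal RNA was still present, since Snap25, a presynaptic gene, read 13.33 to 13.78 on the bound and 13.90 to 14.19 on the unbound arrays. Of the other lists, 10 of 11 oligodendrocyte and 7 of 11 microglia markers were lower in the bound fraction, while 8 of 9 meningeal and 3 of 9 ependymal or choroid plexus markers were higher. Of all genes 42.2% were higher and 27.2% lower, so the ependymal and choroid plexus count was not above the share of all genes. The mean level of the 9 ependymal and choroid plexus genes ranged from 5.90 to 8.98 between bound arrays. The part of these cells in the results was not tested.

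The fractions were compared to see which of these transcripts are carried by astrocyte ribosomes. In the bound fraction 33 of the 36 genes were higher, 1 was lower and 2 did not pass the test. The comparison moved much of the genome, with 69.4% of all genes past the threshold, 42.2% higher and 27.2% lower (limma, Benjamini-Hochberg adjusted p under 0.05). The median difference of the 36 genes was 2.20 log2 units above that of all genes. Here and below, log2 differences are relative to the median difference of all genes in that comparison, with SE, while calls rest on the differences as fitted. For the fractions this median was 0.16. For 31 of the 36 genes every bound array lay above every unbound array, which held for 17.2% of all genes. The exceptions were Cpt1c, Ppara, Oxct1, Acat1 and Lipe.

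**Figure D1:**
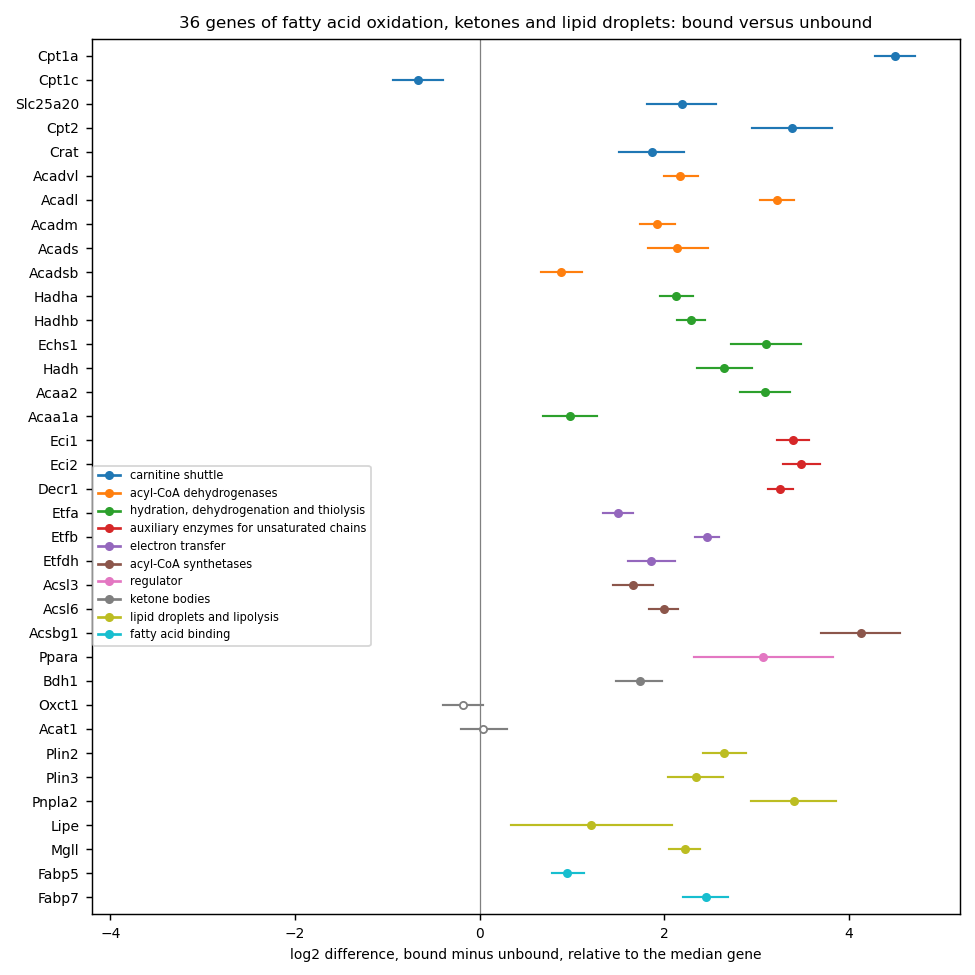
Log2 difference between the bound (18 arrays) and unbound (6 arrays) fractions for the 36 genes, relative to the median of all genes, with 95% intervals as lines and roles as colours. Filled points passed the test and open points did not; 33 genes lie to the right, up to Cpt1a at 4.50, Cpt1c lies to the left at -0.67, and Oxct1 and Acat1 lie near 0.

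The carnitine shuttle held both extremes. Cpt1a, the liver-type carnitine palmitoyltransferase of the outer membrane and the rate-limiting step of import, read 10.20 to 10.91 (median 10.47) on the bound and 5.26 to 6.79 (median 5.71) on the unbound arrays. The groups were far apart, and the difference of 4.50 ± 0.10 (22.6-fold, adjusted p = 1.73e-19) was the largest of the 36. Its brain form Cpt1c, which lies in the endoplasmic reticulum of neurons, read 7.78 to 8.82 (median 8.23) bound and 8.37 to 9.26 (median 8.60) unbound. These ranges overlapped, and the gene was lower in the bound fraction by 1.59-fold (-0.67 ± 0.13, adjusted p = 0.00152). Within single states its difference was -0.52 (adjusted p = 0.26) in sleep, -0.92 (adjusted p = 0.00336) in waking and -0.59 (adjusted p = 0.172) after sleep deprivation, so that only waking passed by itself.

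The later steps of the shuttle were on the bound side. Cpt2, the inner transferase, read 8.29 to 9.67 (median 9.20) bound and 4.71 to 6.72 (median 5.46) unbound, a difference of 3.38 ± 0.21. Slc25a20, the carrier of acylcarnitines, read 10.24 to 11.39 (median 10.81) and 8.04 to 9.00 (median 8.40), a difference of 2.19 ± 0.18. Neither gene had overlapping fractions. Crat, which makes acetylcarnitine, read 8.16 to 9.54 (median 9.15) and 6.50 to 7.46 (median 7.07), a difference of 1.86 ± 0.17.

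All 5 acyl-CoA dehydrogenases, which open each round of oxidation, were higher in the bound fraction. Acadl, for long chains, read 9.86 to 10.38 (median 10.18) bound and 6.32 to 7.25 (median 6.78) unbound, a difference of 3.22 ± 0.09 or 9.33-fold. Acadvl, for very long chains, read 11.54 to 12.04 and 8.80 to 10.04 and differed by 2.17 ± 0.09. Acads and Acadm, for short and medium chains, differed by 2.14 ± 0.15 and 1.92 ± 0.09. Acadsb, which also acts in the breakdown of isoleucine, had the smallest of the 5 differences, at 0.88 ± 0.11.

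The 6 genes of hydration, the further dehydrogenation and thiolysis were all higher too. Echs1, the short-chain enoyl-CoA hydratase, had a mean of 10.74 ± 0.42 (SD, n = 18; highest 11.28) bound and read 7.03 to 7.95 (median 7.47) unbound, a difference of 3.10 ± 0.18. Acaa2, the mitochondrial thiolase, read 10.56 to 11.52 (median 11.20) and 7.34 to 8.34 (median 7.97), a difference of 3.09 ± 0.13. For both genes the lowest bound array was more than 2 log2 units above the highest unbound array. Hadh, the hydroxyacyl-CoA dehydrogenase for shorter chains, differed by 2.65 ± 0.14, and Hadhb and Hadha, the subunits of the trifunctional protein, by 2.29 ± 0.07 and 2.13 ± 0.09. The peroxisomal thiolase Acaa1a had the smallest of the 6 differences, at 0.98 ± 0.14. Its probe set is of a type that can cross-hybridize, and its near-identical relative Acaa1b makes the value uncertain. The probe sets of Hadh and Acadsb are of the same type, and Acadsb has no other.

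The 3 auxiliary enzymes for unsaturated chains were higher as well. Eci2, an enoyl-CoA isomerase, read 10.93 to 11.66 (median 11.34) bound and 7.22 to 8.24 (median 7.57) unbound, a difference of 3.48 ± 0.10 or 11.2-fold. Its relative Eci1 read 11.37 to 12.07 (median 11.75) and 7.92 to 8.75 (median 8.19), a difference of 3.39 ± 0.08. Both isomerases move double bonds to the position that oxidation needs. Decr1, the dienoyl-CoA reductase, read 11.02 to 11.46 (median 11.30) and 7.55 to 8.13 (median 7.88), a difference of 3.25 ± 0.07. The electron-transfer genes, which pass electrons from the dehydrogenases to ubiquinone, differed by 2.46 ± 0.06 for Etfb, 1.85 ± 0.12 for Etfdh and 1.50 ± 0.08 for Etfa.

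Acyl-CoA synthetases activate fatty acids, and the 3 in the set were all higher in the bound fraction. Acsbg1, a very-long-chain synthetase of brain, read 10.84 to 12.04 (median 11.42) bound and 6.40 to 7.81 (median 7.13) unbound, a difference of 4.13 ± 0.20 or 17.5-fold. Acsl6 and Acsl3 differed by 1.99 ± 0.08 and 1.66 ± 0.11. Ppara, the nuclear receptor that drives many oxidation genes, scattered more, from 7.75 to 10.49 bound and from 5.17 to 8.00 unbound, with a difference of 3.07 ± 0.36. Its highest unbound array, the sleep-deprivation pool of animals 4 to 6, lay above its lowest bound array.

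Ketone body genes were divided. Bdh1, which interconverts hydroxybutyrate and acetoacetate, read 10.16 to 11.05 (median 10.47) bound and 8.22 to 8.85 (median 8.64) unbound and was higher by 1.73 ± 0.12. Oxct1, the transferase that commits ketone bodies to oxidation, read 12.26 to 12.85 (median 12.54) and 12.35 to 12.74 (median 12.58). The fractions overlapped, with a difference of -0.18 ± 0.11 (95% interval -0.40 to 0.04, adjusted p = 0.879). Oxct1 was called lower in the bound fraction with arrays centred on their median, at -0.18 (adjusted p = 0.00971), and with quantile normalization repeated, at -0.23 (adjusted p = 0.0483). Acat1, the acetoacetyl-CoA thiolase, read 11.76 to 12.46 (median 12.14) and 11.70 to 12.27 (median 11.95), with a difference of 0.04 ± 0.12 (interval -0.20 to 0.29, adjusted p = 0.132). For both genes the interval stayed within 1.5-fold of the median gene, but the probe sets of a gene disagreed. Relative to all probe sets, the other 2 of Acat1 gave 0.34 ± 0.09 (adjusted p = 0.000465) and -0.84 ± 0.14 (adjusted p = 4.89e-05). The brightest other probe set of Oxct1 gave 0.26 ± 0.07 (adjusted p = 0.000133), and its remaining 2 did not pass.

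Lipid droplet genes were all on the bound side on average, though for Lipe only in animals 1 to 3 did every bound array lie above the pools. Pnpla2, the triglyceride lipase that starts lipolysis, read 9.36 to 11.33 (median 10.18) bound and 6.25 to 7.36 (median 6.57) unbound, a difference of 3.40 ± 0.22. Plin2, a droplet coat protein gene, read 8.35 to 9.49 (median 8.89) and 5.57 to 6.54 (median 6.12), a difference of 2.65 ± 0.11. A further coat gene, Plin3, differed by 2.34 ± 0.14, and Mgll, the monoglyceride lipase that also degrades an endocannabinoid, by 2.22 ± 0.08. Lipe, hormone-sensitive lipase, was the dimmest of the 36 genes and the least certain of those called, at 1.21 ± 0.42 (adjusted p = 0.00627). Its fractions overlapped, and its difference was 1.30 (adjusted p = 0.0845) within sleep, 0.60 (adjusted p = 0.464) within waking and 1.72 (adjusted p = 0.0294) within sleep deprivation, the 1 state that passed by itself. The bound arrays of Lipe read 7.26 to 8.52 in animals 1 to 3 and 5.26 to 6.40 in animals 4 to 6. The latter lay within the unbound range of 4.80 to 6.45. The fatty acid binding protein genes Fabp7, a glial form, and Fabp5 differed by 2.45 ± 0.12 and 0.95 ± 0.08. Of the 33 further probe sets of the 36 genes, 29 were higher, 1 was lower, that of Acat1, and 3 did not pass. Sizes were less settled than directions. Over other settings and single probe sets the difference ran from 0.24 to 2.79 for Hadhb, 0.19 to 3.45 for Mgll and 0.93 to 3.62 for Pnpla2. The highest mean was taken over 18 bound and 6 unbound arrays, so the choice leans toward probe sets that read high in the bound fraction.

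**Figure D2:**
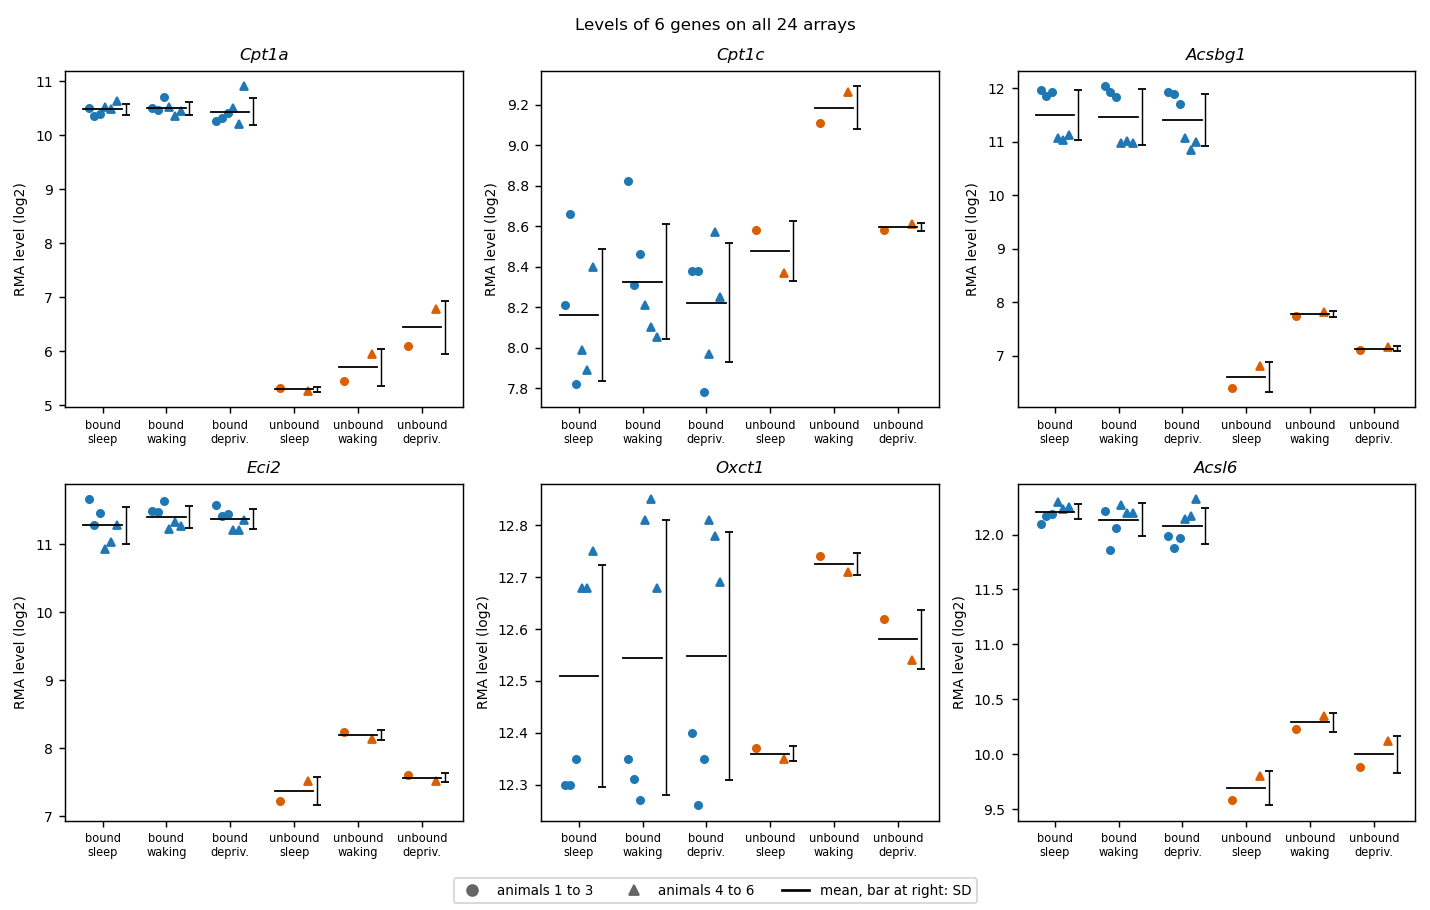
Log2 RMA levels of 6 genes on all 24 arrays, by fraction and state, with circles for animals 1 to 3, triangles for animals 4 to 6, a line at each group mean and a bar for the SD; vertical axes differ between panels and do not start at 0. Cpt1a, Acsbg1, Eci2 and Acsl6 show a gap between the fractions, Cpt1c and Oxct1 overlap, and unbound Cpt1a runs from 5.26 in a sleep pool to 6.79 in a sleep-deprivation pool.

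The states were compared within the bound fraction to see whether these transcripts differ in astrocytes between sleep and wake. None of the 36 genes passed in waking against sleep (limma; background 11.2% of all genes), with 1 at an unadjusted p under 0.05. Likewise 0 passed in limma for sleep deprivation against sleep (background 14.3%) and for sleep deprivation against waking (background 6.84%), with 2 at an unadjusted p in each. Dim genes weigh on these backgrounds. With genes under the median level left out they were 0.945%, 2.37% and 0.561%, and 35 of the 36 genes lay at or above that level. The 3 comparisons share groups and are not independent.

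The intervals were narrow for most genes, but they hold only the scatter within groups. Normalization run and group cannot be told apart, as described with the processing, so an offset between runs would not show in them. In waking against sleep the 95% interval stayed within 2-fold of the median gene for 34 of the 36 genes and within 1.5-fold for 27, with Lipe and Ppara outside 2-fold. In each sleep-deprivation comparison 33 stayed within 2-fold, with Pnpla2 also outside. Cpt1a differed from sleep by -0.07 ± 0.11 in waking and -0.16 ± 0.11 after sleep deprivation, with intervals of -0.31 to 0.16 and -0.39 to 0.07. Acadl was at 0.01 ± 0.09 and -0.08 ± 0.09, and Etfb, which takes electrons from it, at -0.10 ± 0.07 and -0.14 ± 0.07. Relative to the median gene 31 of the 36 lay lower in waking than in sleep and 30 after sleep deprivation, with medians of -0.12 and -0.14. Of all genes at or above the median level, 56.2% and 56.4% lay lower, with medians of -0.03 and -0.04. Red blood cell markers differed between states on these arrays, 2 of 3 being called higher in waking and 3 of 3 after sleep deprivation. Their mean level was 3.93 to 4.22 in sleep, 4.34 to 4.72 in waking and 4.53 to 4.92 after sleep deprivation. Of 10 endothelial markers 2 were higher in waking and 0 after sleep deprivation, with mean levels of 4.76 to 4.99, 5.05 to 5.56 and 4.74 to 5.38 in the same order. Both lists were dim, under the median gene level of 7.13 on the bound arrays, and dim genes weigh on the state calls. Of 9 ependymal and choroid plexus markers 0 passed in limma in either comparison with sleep, with 1 at an unadjusted p under 0.05 in each, and the medians of their mean levels were 8.46, 7.65 and 7.28. The part of these cells in the state values was not tested.

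**Figure D3:**
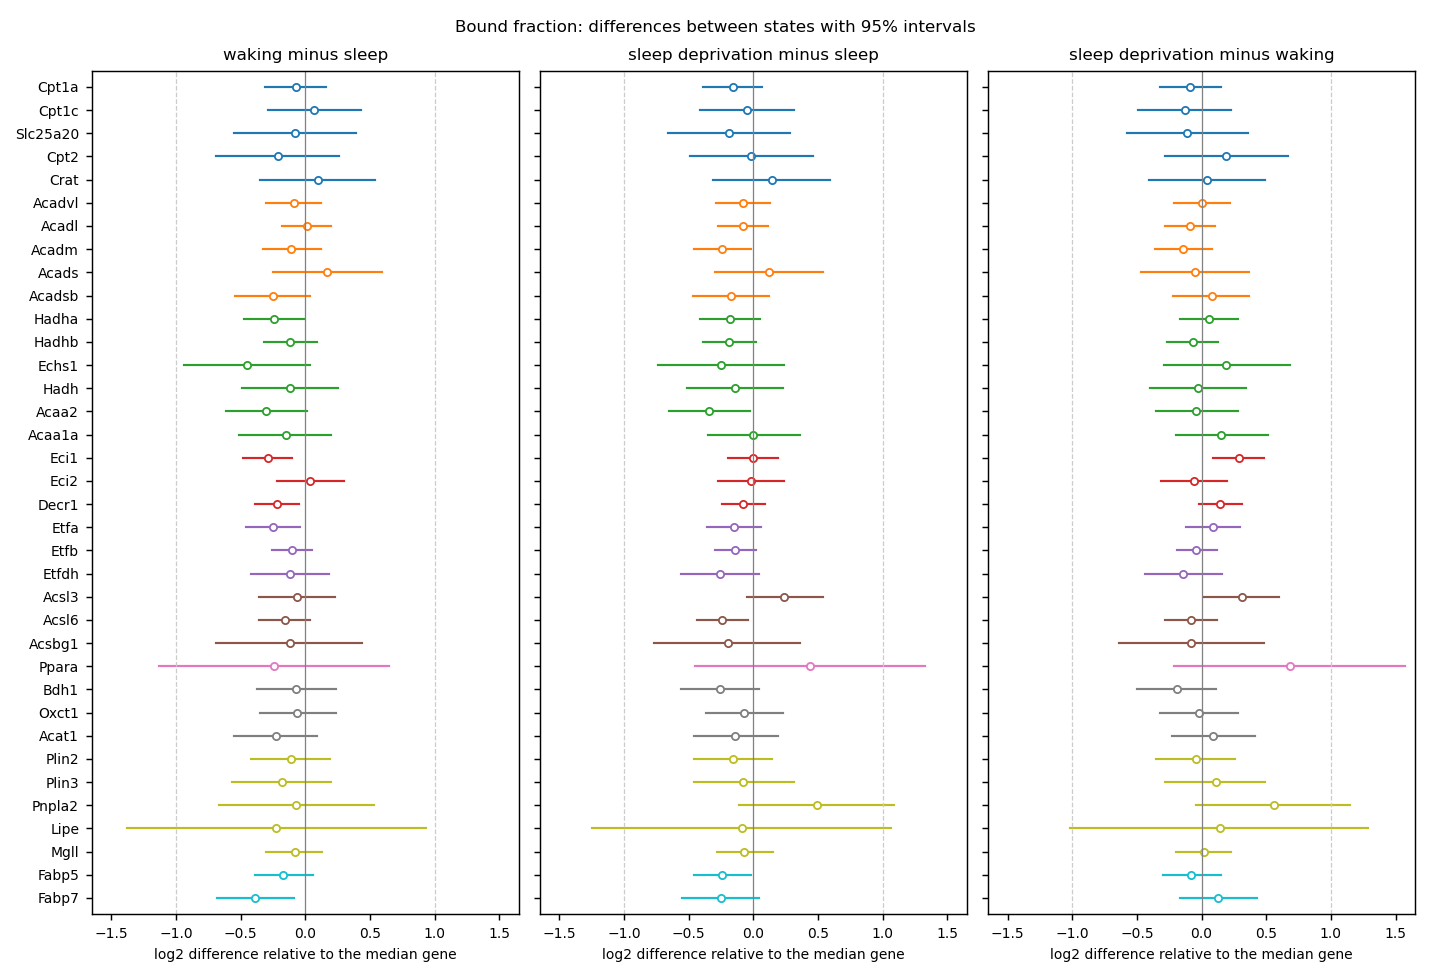
Log2 differences between states in the bound fraction for the 36 genes, relative to the median of all genes, with 95% intervals, roles as colours and dashed lines at 2-fold. All points are open because none passed the test, and the intervals of Lipe and Ppara reach past 2-fold in each panel.

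Much of the scatter within states followed the animal numbers. The animals pooled as 1 to 3 and as 4 to 6 for the unbound arrays also differed on the bound arrays, in 43.8% of all genes with state in the model. Of the 36 genes, 14 were higher and 11 lower in animals 4 to 6. The labels do not say what separates the sets. Lipe was at -1.77 ± 0.17, Ppara at -1.25 ± 0.18, Pnpla2 at -0.92 ± 0.08, Acsbg1 at -0.90 ± 0.05 and Echs1 at -0.72 ± 0.09, all lower in animals 4 to 6. Slc25a20 (0.68 ± 0.08), Hadh (0.54 ± 0.05), Acat1 (0.46 ± 0.05), Acaa1a (0.43 ± 0.09) and Oxct1 (0.42 ± 0.05) were higher there. Acsbg1 read 11.97, 11.86 and 11.92 in sleeping animals 1 to 3 and 11.07, 11.04 and 11.12 in sleeping animals 4 to 6. Its sets did not overlap in any state. Cpt1a (0.06 ± 0.09), Acadl (-0.06 ± 0.07), Decr1 (-0.03 ± 0.06) and Etfb (0.03 ± 0.05) did not pass. Astrocyte markers went both ways between the sets, 4 of 16 being higher and 5 lower in animals 4 to 6, and their mean level was 12.02 to 12.21 and 12.02 to 12.15. Of 9 pericyte and smooth muscle markers 5 were lower in animals 4 to 6, and their mean levels did not overlap, at 6.10 to 6.48 in animals 1 to 3 and 5.83 to 6.06 in animals 4 to 6. Of 9 meningeal markers 4 were lower and of 5 oligodendrocyte precursor markers 1, the latter with median levels of 6.79 and 6.37. Ependymal and choroid plexus markers had medians of 6.69 and 8.69, with 1 of 9 higher and 1 lower. The part of these cells in the difference between the sets was not tested.

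**Figure D4:**
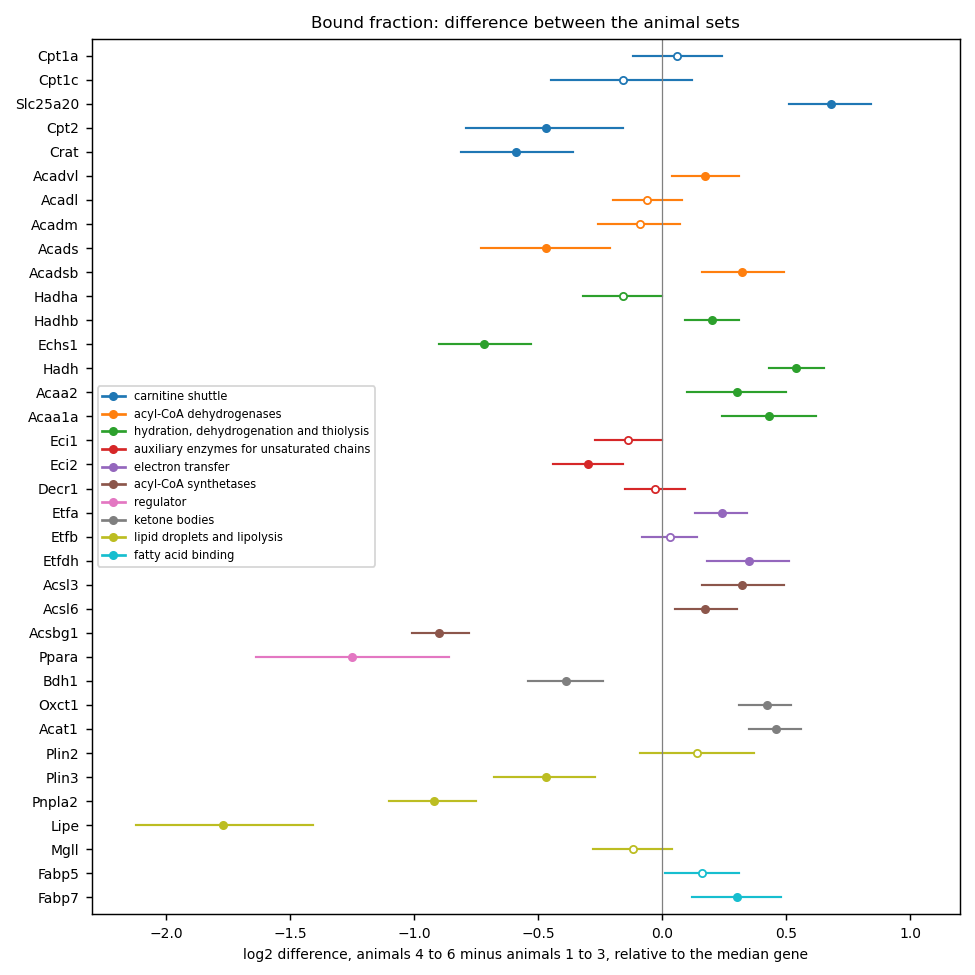
Log2 difference between animals 4 to 6 and animals 1 to 3 on the bound arrays (9 against 9, state in the model), relative to the median of all genes, with 95% intervals and roles as colours; filled points passed the test. Lipe, Ppara, Pnpla2 and Acsbg1 lie furthest to the left, at -1.77, -1.25, -0.92 and -0.90, and Slc25a20 furthest to the right, at 0.68.

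With the replicate number as a block, which takes up this difference, a few of the 36 genes passed. After sleep deprivation against sleep 2 were higher (background 21.3%), Pnpla2 by 0.49 ± 0.11 (adjusted p = 0.00204) and Acsl3 by 0.24 ± 0.10 (adjusted p = 0.0214). Against waking 3 were higher (background 10.5%), Pnpla2 by 0.56 ± 0.11 (adjusted p = 0.00498), Acsl3 by 0.31 ± 0.10 (adjusted p = 0.0492) and Eci1 by 0.29 ± 0.08 (adjusted p = 0.0306). In waking against sleep 1 was lower (background 16.8%), Echs1 at -0.45 ± 0.11 (adjusted p = 0.0471). With genes under the median level also left out, the backgrounds were 11.9%, 3.21% and 7.04%. Of the 35 genes then tested, 2, 2 and 0 passed in limma: Acsl3 lost its call against waking (0.31 (adjusted p = 0.0762)) and Echs1 its call in waking (-0.42 (adjusted p = 0.0703)).

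Pnpla2 on the bound arrays of animals 1 to 3 read 10.46, 10.37 and 10.43 in sleep, 10.38, 10.46 and 10.31 in waking and 11.33, 11.05 and 11.18 after sleep deprivation. In animals 4 to 6 it read 9.60, 9.58 and 9.57, then 9.74, 9.36 and 9.88, then 10.01, 10.05 and 9.98. Within each set every sleep-deprived animal lay above every sleeping and waking animal, while over all 18 arrays the states overlapped. The difference from sleep was 0.67 ± 0.11 (adjusted p = 0.00801) in animals 1 to 3 alone and 0.30 ± 0.15 (adjusted p = 0.118) in animals 4 to 6 alone. The difference between the sets in this effect did not pass (-0.36 ± 0.17, adjusted p = 0.849). A dim second probe set of Pnpla2 gave 0.29 ± 0.29 (adjusted p = 0.423) against sleep and -0.25 ± 0.29 (adjusted p = 0.799) against waking, without the block.

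Acsl3 activates long-chain fatty acids at the endoplasmic reticulum and on lipid droplets. In animals 1 to 3 it read 12.08, 11.94 and 11.82 in sleep, 12.13, 11.76 and 11.91 in waking and 12.51, 12.48 and 12.47 after sleep deprivation. In animals 4 to 6 it read 12.31, 12.39 and 12.44, then 12.55, 12.37 and 12.40, then 12.65, 12.44 and 12.55. The sleep-deprived animals stood apart in animals 1 to 3 and overlapped the others in animals 4 to 6. The difference from sleep was 0.44 ± 0.13 (adjusted p = 0.035) in the former and 0.04 ± 0.12 (adjusted p = 0.414) in the latter. The difference between the sets in this effect did not pass (-0.39 ± 0.16, adjusted p = 0.791). Without a block, 1 other probe set of Acsl3 gave 0.81 ± 0.21 (adjusted p = 0.00458) and the remaining one 0.19 ± 0.16 (adjusted p = 0.235).

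Eci1 in animals 1 to 3 read 11.69, 11.76 and 11.63 in waking and 11.96, 11.90 and 11.91 after sleep deprivation. In animals 4 to 6 it read 11.54, 11.51 and 11.37 in waking and 11.65, 11.85 and 12.07 after sleep deprivation. These states did not overlap within either set, and without the block the adjusted p was 0.0516. Sleeping animals read 11.71 to 11.93 in animals 1 to 3 and 11.67 to 11.79 in animals 4 to 6. With the block, Eci1 differed from sleep by -0.29 ± 0.08 (adjusted p = 0.111) in waking. After sleep deprivation it was at the level of sleep, at -0.0 ± 0.08 (adjusted p = 0.38). Echs1 read 11.27, 11.28 and 11.10 in sleep and 10.82, 10.85 and 11.06 in waking in animals 1 to 3, and 10.38, 10.61 and 10.83 in sleep in animals 4 to 6. Waking animals 4 and 5 read 10.41 and 10.17, and with the sixth, the lowest of all 18 bound arrays, their mean was 10.19 ± 0.21 (SD, n = 3). Sleep and waking were apart in animals 1 to 3 and overlapped slightly in animals 4 to 6.

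**Figure D5:**
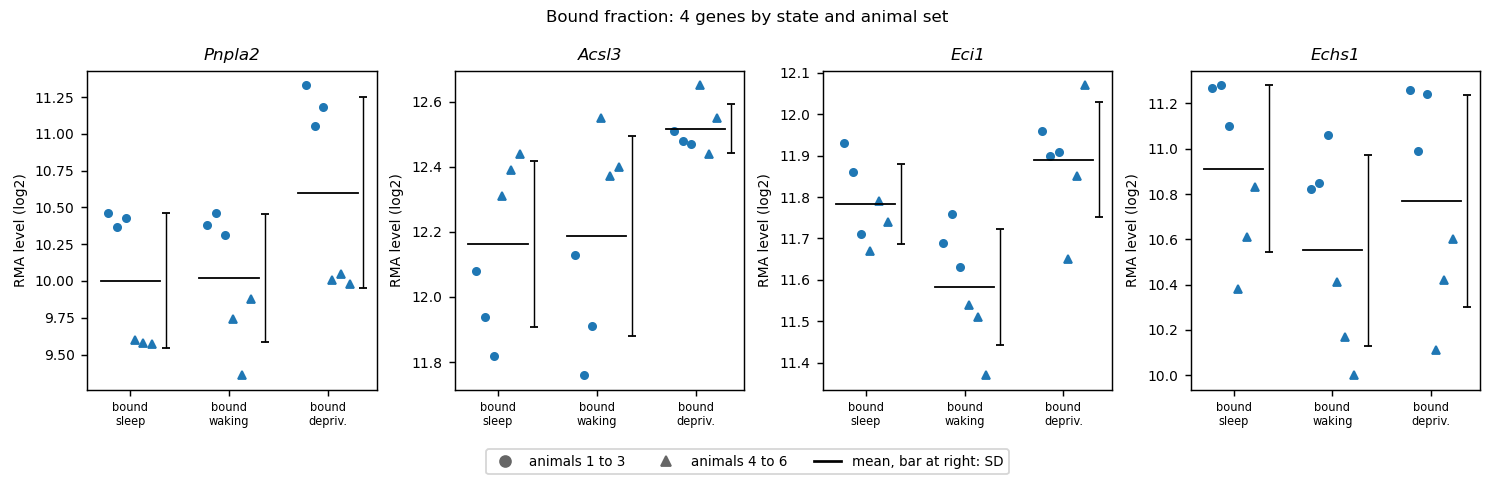
Log2 RMA levels of Pnpla2, Acsl3, Eci1 and Echs1 on the 18 bound arrays by state, with circles for animals 1 to 3, triangles for animals 4 to 6, a line at each group mean and a bar for the SD; vertical axes differ and do not start at 0. For Pnpla2 the sleep-deprived animals lie highest within each set, at 11.05 to 11.33 and at 9.98 to 10.05.

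In the unbound fraction 2 of the 36 genes passed in waking against sleep (background 6.32%), both higher. Acsbg1 read 6.40 and 6.80 in the sleep pools and 7.74 and 7.81 in the waking pools, a difference of 0.88 ± 0.19 (adjusted p = 0.0366). Eci2 read 7.22 and 7.52 in sleep and 8.24 and 8.14 in waking, a difference of 0.52 ± 0.17 (adjusted p = 0.0485). The pools of the 2 states did not overlap for either gene. Both calls ended when any 1 of the 6 pools was left out (adjusted p up to 0.147 and 0.175), and with arrays centred on their median 0% of all genes passed. The mean level of the 16 astrocyte markers was 8.75 to 8.79 in the sleep pools, 9.15 to 9.20 in the waking pools and 8.97 to 9.09 in the sleep-deprivation pools, and its part in these values was not tested.

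In unbound sleep deprivation against sleep 0 of the 36 genes passed in limma (background 1.87%), with 8 at an unadjusted p under 0.05. Cpt1a read 5.33 and 5.26 in sleep, 5.46 and 5.95 in waking and 6.10 and 6.79 after sleep deprivation. The sleep-deprivation pools were highest, and the difference from sleep was 0.98 ± 0.28 (adjusted p = 0.0827). Its other 2 probe sets gave 1.11 ± 0.20 (adjusted p = 0.0431) and 0.58 ± 0.40 (adjusted p = 0.288). Cpt2, the next enzyme of the shuttle, read 6.72 and 5.48 in sleep and 4.83 and 4.71 after sleep deprivation, a difference of -1.50 ± 0.48 (adjusted p = 0.16).

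Whether a state effect differed between the fractions was tested on all 24 arrays, with pools and bound arrays of the same animals counted as separate. For sleep deprivation 1 of the 36 genes passed (background 4.89%), Cpt1a, whose effect was lower in the bound fraction (-1.14 ± 0.26, adjusted p = 0.00718). On the bound arrays it read 10.36 to 10.64 in sleep and 10.20 to 10.91 after sleep deprivation, so that these states overlapped there and not in the pools. Without the sleep-deprivation pool of animals 4 to 6 the value was -0.77 (adjusted p = 0.106), and its other probe sets gave -1.28 ± 0.38 (adjusted p = 0.0435) and -0.58 ± 0.39 (adjusted p = 0.449). The call also ended with dim genes left out, at -1.09 (adjusted p = 0.0568). With animals averaged by set and the set as a block it ended too, at -1.14 (adjusted p = 0.125). Cpt2 lay on the opposite side, at 1.49 ± 0.51 (adjusted p = 0.126).

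For waking 1 of 36 passed (background 5.6%), Acsl6, a synthetase known for activating polyunsaturated fatty acids in brain, at -0.46 ± 0.19 (adjusted p = 0.0367). It read 12.10 to 12.30 in sleep and 11.86 to 12.27 in waking on the bound arrays, and 9.58 and 9.80 against 10.23 and 10.35 in the unbound pools. The pools were apart and the bound arrays overlapped. The call ended when any of 7 of the 24 arrays was left out, namely sleep 4, sleep 6 and waking 3 of the bound arrays and the 4 sleep and waking pools (adjusted p up to 0.214). Its other probe set gave -0.19 ± 0.27 (adjusted p = 0.475). Leaving out dim genes (-0.41, adjusted p = 0.11) and averaging animals by set in a block (-0.46, adjusted p = 0.155) also ended the call.

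Other genes of lipid metabolism, 117 measured in 7 lists, gave the surroundings of the 36. Between the fractions 42.2% of all genes were higher in the bound one and 27.2% lower. In the bound fraction 15 of 16 further mitochondrial oxidation genes were higher and 0 lower, led by Ech1 (2.84 ± 0.18), Ivd (2.23 ± 0.19) and Slc25a29 (2.04 ± 0.19). Of 18 peroxisomal oxidation genes 15 were higher and 0 lower, led by the carnitine octanoyltransferase Crot (4.20 ± 0.11), Hacl1 (3.08 ± 0.19) and Pex11a (2.20 ± 0.16). Fatty acid synthesis and desaturation was higher for 15 and lower for 1 of 19, led by the desaturase Fads2 (4.02 ± 0.29), the elongase Elovl2 (3.60 ± 0.26) and the regulator Srebf1 (2.87 ± 0.22). Triglyceride synthesis and lipid droplets was higher for 18 and lower for 2 of 26, led by Cideb (3.85 ± 0.16), Gpam (2.27 ± 0.10) and the lipase inhibitor G0s2 (2.14 ± 0.21). The medians of these lists were 1.04, 1.10, 1.24 and 0.78, against 2.20 for the 36 genes.

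The remaining lists were mixed, beside 42.2% higher and 27.2% lower among all genes. Uptake and activation was higher for 5 and lower for 6 of 13, with Acss1 (3.50 ± 0.10) and the transporter Slc27a1 (3.11 ± 0.15) on the bound side and the binding protein Fabp3 (-2.75 ± 0.17) on the other. A list of PPARs, other nuclear receptors, co-regulators and genes that respond to them was higher for 10 and lower for 8 of 21. Its largest differences were those of the mitochondrial carrier Ucp3 (3.42 ± 0.12), the pyruvate dehydrogenase kinase Pdk4 (2.86 ± 0.26) and the liver X receptor Nr1h3 (2.54 ± 0.31), none of them a PPAR. Of 4 genes of ketone synthesis and transport 3 were higher, among them Bdh2 (3.01 ± 0.19) and the monocarboxylate transporter Slc16a1 (0.78 ± 0.17), and Slc16a7, a neuronal transporter, was lower (-2.74 ± 0.27).

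Some of these other genes passed in the bound state comparisons, and all that passed are named below. In each comparison they made up a smaller share of the 117 than the share of all genes that passed. Of all genes 11.2% passed in waking against sleep, 14.3% in sleep deprivation against sleep and 6.84% in sleep deprivation against waking. Lpl, the lipoprotein lipase that frees fatty acids for uptake, read 5.50 to 6.62 (median 6.12) in sleep, 4.57 to 5.13 (median 4.80) in waking and 4.70 to 6.18 (median 5.07) after sleep deprivation. It was lower than in sleep both in waking (-1.37 ± 0.22, adjusted p = 0.000843) and after sleep deprivation (-1.04 ± 0.22, adjusted p = 0.00751), which share the sleep arrays. Sleep and waking did not overlap. Averaging the probe sets of Lpl ended both calls, with -0.85 (adjusted p = 0.108) in waking and -0.87 (adjusted p = 0.0958) after sleep deprivation. In animals 1 to 3 alone neither passed, at -0.95 (adjusted p = 0.173) and -0.69 (adjusted p = 0.322). Lpl was also dim, under the median gene level of 7.13 on the bound arrays. Rxra, the partner receptor of the PPARs, read 7.94 to 8.30 in sleep and 8.52 to 8.95 after sleep deprivation, with no overlap and a difference of 0.55 ± 0.11 (adjusted p = 0.000436). With its probe sets averaged the value was 0.18 (adjusted p = 0.102). In the unbound pools Rxra was higher after sleep deprivation by 0.87 ± 0.16 (adjusted p = 0.0439).

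Of 18 peroxisomal genes 3 were higher after sleep deprivation than in sleep (background 14.3% of all genes), Acaa1b (0.99 ± 0.30), Acot4 (0.48 ± 0.16) and Crot (0.27 ± 0.12). Against waking 3 were higher (background 6.84%), Acaa1b (1.09 ± 0.30), Ehhadh (0.64 ± 0.15) and Crot (0.39 ± 0.12), and in waking against sleep Pecr was lower (-0.74 ± 0.16). Acaa1b and Acot4 were dim, at 3.60 to 6.18 and 3.97 to 5.25, while Crot read 9.93 to 10.93 on the bound arrays. Crot lost both calls with arrays centred on their median, at 0.27 (adjusted p = 0.166) and 0.39 (adjusted p = 0.0629). Acot4 lost its call with centring (0.48 (adjusted p = 0.0597)) and with quantile normalization repeated (0.36 (adjusted p = 0.177)), and turned sign with its probe sets averaged (-0.03 (adjusted p = 0.513)). Acaa1b lost its call against sleep with quantile normalization repeated (0.89 (adjusted p = 0.0645)). Pecr lost its call with its probe sets averaged (-0.34 (adjusted p = 0.219)) and with dim genes left out (-0.70 (adjusted p = 0.0589)).

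The fatty acid translocase Cd36 was higher after sleep deprivation than in sleep (0.90 ± 0.17, adjusted p = 0.000448) and than in waking (0.97 ± 0.17, adjusted p = 0.00111), but dim at 3.19 to 4.70. With its probe sets averaged these became 0.33 (adjusted p = 0.00192) and 0.25 (adjusted p = 0.0753), which ended the call against waking. Further calls after sleep deprivation against sleep were Lpin1 (0.26 ± 0.12) and Thrsp (0.15 ± 0.08), both higher, and Acacb, an acetyl-CoA carboxylase whose product restrains carnitine import, which was lower (-0.69 ± 0.16). The call of Acacb ended with its probe sets averaged (-0.22 (adjusted p = 0.636)). In waking Rxrb was higher (0.44 ± 0.15). With arrays centred, the calls of Lpin1 (0.26 (adjusted p = 0.194)), Thrsp (0.15 (adjusted p = 0.25)) and Rxrb (0.44 (adjusted p = 0.0661)) ended. The calls of Crot, Lpin1, Thrsp, Acacb, Rxrb and, against waking, Acaa1b ended when single arrays were left out. Of the 16 further mitochondrial oxidation genes 0 passed in limma in each of the 3 bound comparisons, with 1, 2 and 1 at an unadjusted p under 0.05.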

How the data were processed

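RNA was measured on 24 Affymetrix mouse genome arrays. The deposited table holds log2 expression for each probe set, which the authors made by RMA, according to the submitters' processing notes. The RMA version, and which arrays were normalized together, are not given in the sources used here. Exact ties occurred in 48 of 48 pairs of arrays of the same group and 0 of 228 pairs of different groups, so normalization run and group cannot be told apart. Arrays give no counts, and the number of arrays limits the precision. Of 45101 probe sets, 34945 had 1 gene symbol in the platform annotation, 932 several and 9160 none, and 64 controls were left out. The brightest probe set of each of 18193 genes was kept, with no filter on dim genes.

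Groups were compared with limma 3.58.1 in R 4.3.3 (lmFit and eBayes), with Benjamini-Hochberg adjustment over all genes. The bound fits held the 18 bound arrays, the unbound fits the 6 pools, and comparisons across fractions all 24, where each pool holds the animals of 3 bound arrays. Bound replicate numbers were used as a block, since same-numbered arrays, which are different animals, deviated together (18 correlations of 0.268 to 0.530). After removal of the difference between animals 1 to 3 and 4 to 6 these were -0.109 to 0.181, so the number carried little beyond the animal set. The scripts were tested on simulated data. Promoters came from RefSeq, GRCm38.p6. The members and lists were chosen with earlier results of these data known. Values are given array by array for members called in a state comparison and, as ranges, for the 10 with the largest difference between fractions and any lower in the bound one. All members, genes called in the other lists and the 3 largest differences of each list between fractions were named. Alternatives were another normalization, centring, a filter on dim genes, averaged or single probe sets, an intensity trend, array weights, blocks, animal sets alone and leaving out each array. The comparison of animal sets, and the replicate block with dim genes left out, were added after seeing the data.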

Additional observations from a re-analysis of the deposited data

Results flagged for a closer look

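On single arrays 5 of 108 groups of 6 tested held a value far from the other arrays, where chance gives about 1 in 20. Acadm read 10.04 in bound sleep replicate 4, against 10.45 for the nearest array. Acaa2 read 10.56 in bound waking replicate 1, against 11.06, and Etfdh read 11.01 in bound waking replicate 4, above the next at 10.76. Plin3 read 8.72 in bound sleep deprivation replicate 5, against 9.05, and Fabp5 read 12.66 in bound sleep replicate 2, against 12.98.

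The effect of waking differed between the fractions (bound minus unbound, tested in the fit of all arrays) for Acsl6 at -0.46, Crot at -0.93, Cat at -0.68, Lpl at -1.70, Cideb at -1.64, Cidec at -0.78 and Sirt1 at -1.31. The effect of sleep deprivation differed for Cpt1a at -1.14, Acot13 at -0.55 and Cidec at 0.91. Each of these calls ended when at least 1 array was left out, always including an unbound pool, and the pools number 2 per state. Of all genes 5.6% passed this test for waking and 4.89% for sleep deprivation. The share among the 36 members and the 117 other genes was below that of all genes for both effects.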

How the results depend on the processing

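The call of 34 members between the fractions was the same under the blocks run, with 34 to 34 when arrays were left out. In the bound fraction 0 members were called in each comparison. With the replicate block these counts became 1 in waking against sleep, 2 in sleep deprivation against sleep and 3 in sleep deprivation against waking, with the animal set block 1, 2 and 3, and with the replicate block and dim genes left out 0, 2 and 2. In sleep deprivation against sleep, averaged probe sets gave 2, array weights 1 and animals 1 to 3 alone 2. In sleep deprivation against waking, averaged probe sets, an intensity trend and animals 1 to 3 alone gave 1 each. Leaving out arrays gave 0 to 0, 0 to 0 and 0 to 1.

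In unbound waking against sleep (2 called), leaving out dim genes gave 4, averaged probe sets 4, an intensity trend 9, repeated quantile normalization 0, centred arrays 0 and the replicate block 0, and leaving out pools 0 to 0. The unbound pool numbers share only a number, with correlations of 0.001 to 0.029. In unbound sleep deprivation against sleep (0 called) averaged probe sets gave 1, and leaving out pools 0 to 0. For the waking effect between fractions (1 called), leaving out dim genes, repeated quantile normalization, centring and averaged animals in a block gave 0, averaged probe sets and an intensity trend 2, array weights 5 and a random replicate block 5. For the sleep deprivation effect (1 called), leaving out dim genes and averaged animals in a block gave 0, array weights 2 and a random replicate block 2. Leaving out arrays gave 0 to 2 and 0 to 1. The share of all genes called also moved with the setting, from 6.32% to 0% with centred arrays in unbound waking against sleep. For most other settings it is not given here, so these counts do not set the members apart from other genes.

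Of 781 single-gene values, 640 kept both sign and call, 97 lost and 30 gained a call with the sign kept, and 14 turned sign. Between the fractions these were Etfdh (-0.10, a dim probe set), Oxct1 (0.00 with averaged probe sets, and 0.26, 0.03 and 0.01 for single ones) and Acat1. Acat1 gave -0.08 without dim genes, -0.17 with averaged probe sets, -0.01 with repeated quantile normalization, -0.01 with array weights, -0.11 within waking, -0.01 within sleep deprivation, 0.00 to 0.09 with arrays left out and -0.84 for a single probe set. After sleep deprivation Pnpla2 gave -0.25 against waking for a single probe set, and Acot4 -0.03 against sleep with averaged probe sets. The causes were not tested. Levels near the bottom of the scale, and 2 pools per state, limit what the arrays resolve.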
